A study of Homo sapiens with 39 samples.

Results

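The genes of oxidative phosphorylation (OXPHOS) were examined by RNA-seq in 39 libraries from the melanoma cell lines A375 and WM115, both established human lines. The members are the 13 protein-coding genes of the mitochondrial genome, called encoded here, and 85 nuclear genes for subunits of complexes I to V. They were chosen by symbol (MT-, NDUFA, NDUFB, NDUFC, NDUFS or NDUFV plus a number, SDHA to SDHD, UQCR, COX4 to COX8, ATP5F, ATP5M and ATP5P) among 19966 protein-coding genes of 60671 gene identifiers. By symbol, 37 nuclear members belong to complex I, 4 to complex II, 9 to complex III, 17 to complex IV and 18 to complex V. NDUFA4 is counted with complex I by its symbol, although its protein is now placed in complex IV. The encoded members give 7 subunits of complex I, 1 of complex III, 3 of complex IV and 2 of complex V. The readthrough genes NDUFC2-KCTD14 and ATP5MF-PTCD1 and the gene NDUFA4L2 were not counted, which makes 3 genes left out.

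The respiratory chain passes electrons from NADH and succinate to oxygen, pumps protons out of the mitochondrial matrix, and lets ATP synthase (complex V) make ATP from their return. The encoded subunits sit in the membrane cores of complexes I, III, IV and V, while complex II and all other subunits are made from nuclear genes and imported, so a working chain needs products of both genomes. In melanoma, PPARGC1A, a transcriptional coactivator of mitochondrial genes, is known as a marker of an oxidative state and lies downstream of the melanocyte factor MITF.

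Each line was sampled as unedited cells (labelled WT) and as clones in which an enhancer region of SOX10, which controls genes of the melanocyte lineage, had been deleted. The labels call the deletions R1_del and R4_del. For A375 there were 4 libraries of WT, 3 of clone 1.1 and 4 of clone 1.2 (both R1_del), and 4 of clone 4.1 and 3 of clone 4.2 (both R4_del). For WM115 the same order held 4, 5, 3, 3 and 3 libraries. A further 3 WM115 libraries belong to clone 1.3, whose title carries an R1-type number while its genotype label says R4_del, so it was kept apart. Each clone is a line of cells of its own, and its libraries repeat that clone. Nothing in the labels says that they came from separate cultures, so p-values measure the spread between these libraries, which may be technical. All values are TPM (transcript abundance corrected for transcript length and scaled to the same total in each library), without read counts, so the depth is unknown. RNA was captured by its poly-A tail, so an encoded mRNA's level also reflects how much of it carries a tail.

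Several libraries stood apart. SOX10 was at 9.56 TPM in WM115 clone 1.2 library 3, against 272 and 279 in the other libraries of that clone and 449 to 553 in WM115 WT. In A375, SOX10 was at 381 to 876 TPM, and its WT libraries held 630 to 706. Library 3 of WM115 clone 1.3 held the highest summed encoded level of all libraries and 40.3 TPM of PPARGC1A, against 3.67 and 3.68 in the other libraries of that clone. The pigment cell markers TYR, DCT, PMEL and MLANA were near 0 in A375, and the leukocyte markers were near 0 in both lines. Of 5 fibroblast markers, COL1A2 stood at 365 to 857 TPM in every WM115 library, WT included, while COL1A1, COL3A1, PDGFRA and DCN did not exceed 4.34 TPM there. Ribosomal protein genes took 12.0% to 13.6% of the TPM in WM115 WT and 11.5% in library 3 of clone 1.3, against 16.2% to 18.6% in all other WM115 clone libraries. This share thus moved with the comparison of WM115 clones with WT, and its part in the OXPHOS differences was not tested. In such bulk RNA, fewer cells of a type and less RNA per cell cannot be told apart.

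Summed over its 13 genes, the encoded set took 0.776% to 4.78% of the TPM in the 18 A375 libraries (median 1.53%). In the 21 WM115 libraries it took 4.48% to 18.7% (median 10.5%). The nuclear set was nearly level across lines, at 1.43% to 2.21% in A375 and 1.62% to 2.34% in WM115. The encoded ranges of the lines overlapped only between 4.48% and 4.78%, while the nuclear ranges overlapped over most of their width. Encoded TPM over nuclear TPM came to between 0.542 and 2.48 among A375 libraries and between 2.33 and 8.73 among those of WM115. The ranges met only at A375 clone 1.2, whose highest library reached 2.48, and WM115 clone 1.1, whose lowest fell to 2.33.

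**Figure D1:**
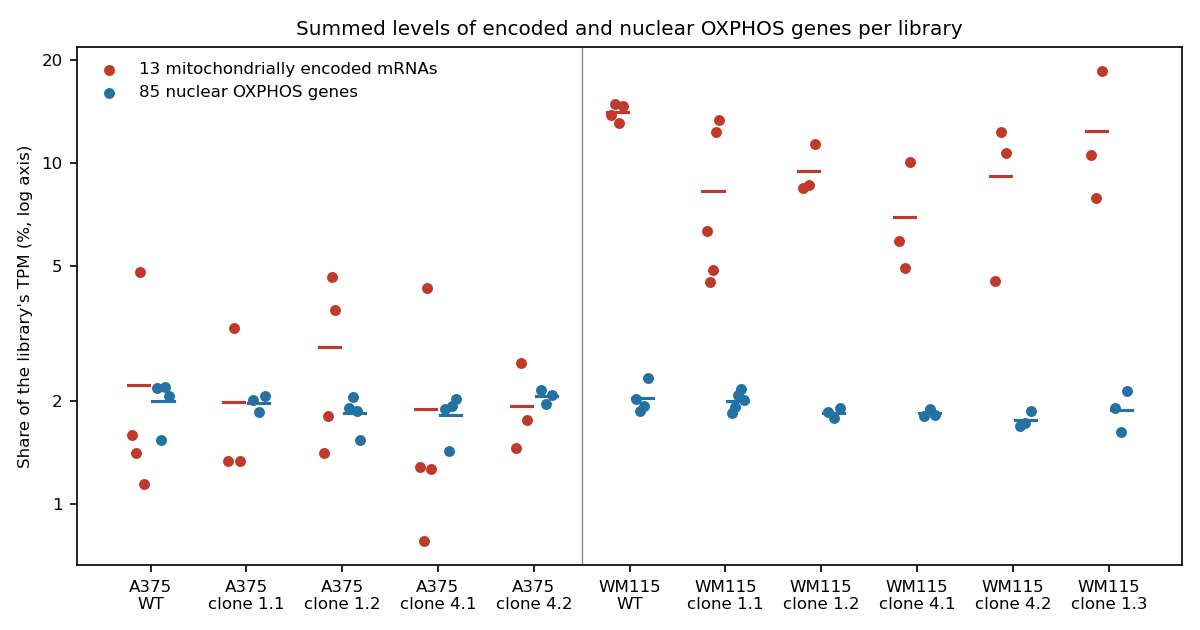
Share of each library's TPM (percent, log axis) taken by the 13 encoded mRNAs (red) and the 85 nuclear OXPHOS genes (blue). Points are libraries and bars are group means. A375 libraries hold encoded shares of 0.776% to 4.78% and WM115 libraries 4.48% to 18.7%, whereas the nuclear share stays between 1.43% and 2.34%.

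The encoded set was also the more variable among libraries of the same clone. The pooled within-group SD of the summed encoded level was 0.848 on the log2 scale in A375 and 0.574 in WM115, against 0.188 and 0.112 for the nuclear sum. Among A375 WT libraries the encoded sum was 15967, 14055, 47795 and 11420 TPM, so library 3 held 4.19 times as much as library 4. Clone 4.1 had the same shape, with 12869, 7757, 42881 and 12625 TPM. Library 3 was the high library in both groups. In A375 clone 1.2 the sums were 14140, 18105, 46291 and 37126 TPM, and in clone 1.1 they were 13350, 32792 and 13387 TPM. Clone 4.2 gave 14545, 25892 and 17576 TPM. The A375 clones and WT therefore overlapped throughout.

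WM115 WT was the most even group, with encoded sums of 138657, 149048, 130512 and 146426 TPM (SD of log2 0.0864, n = 4). Clone 1.1 split into libraries 1 to 3, at 62923, 44839 and 48570 TPM, and libraries 4 and 5, at 123124 and 133708. Clone 1.2 held 84292, 86420 and 113498 TPM, clone 4.1 held 59022, 49292 and 100539, and clone 4.2 held 45188, 123279 and 106644. Every library of clones 1.2, 4.1 and 4.2 lay below every WT library. Clone 1.1 overlapped WT through library 5 alone, and clone 1.3, at 105366, 78938 and 186579 TPM, overlapped it through library 3. Group means were 58.5% of WT in clone 1.1, 67.1% in clone 1.2, 49.3% in clone 4.1, 65.0% in clone 4.2 and 87.6% in clone 1.3.

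**Figure D2:**
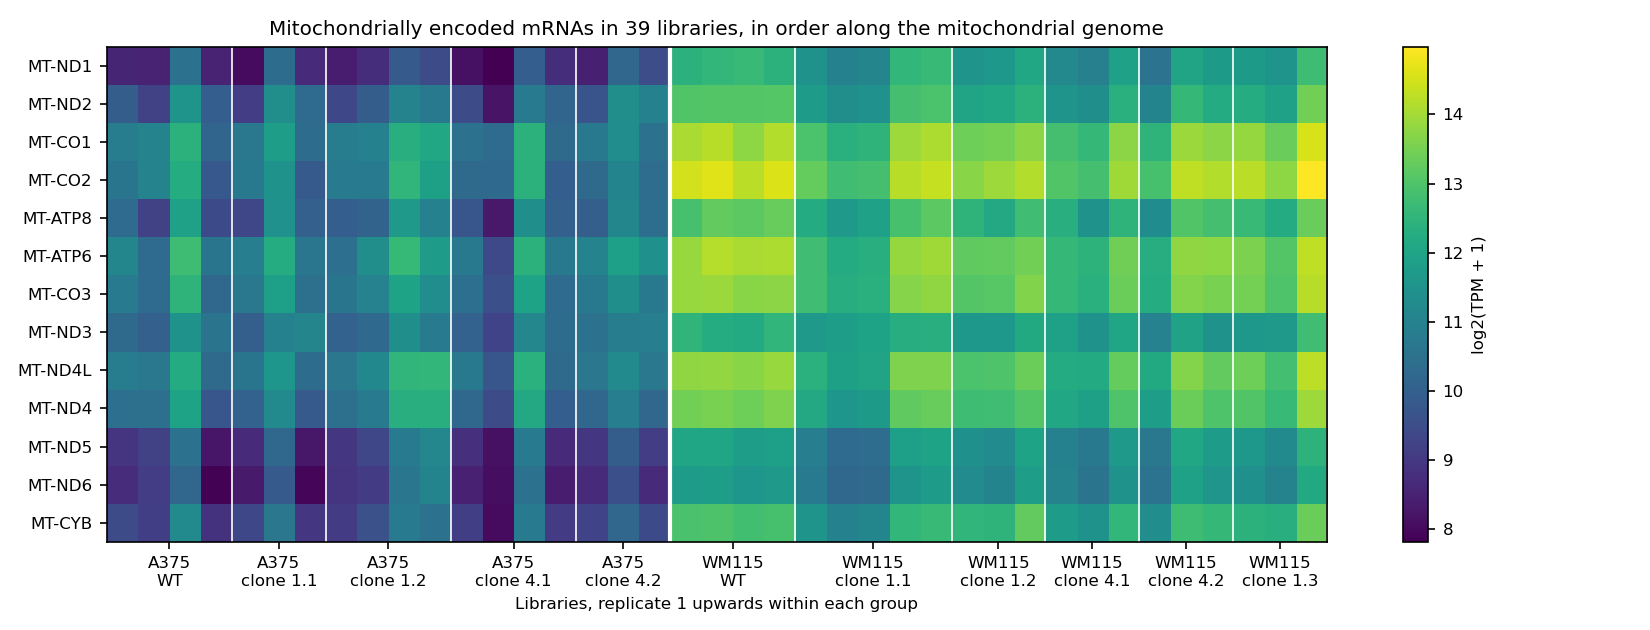
Level of each encoded mRNA (rows, in order along the mitochondrial genome) in each library (columns, grouped by line and clone), as log2(TPM + 1). The WM115 median is above the A375 median in every row, although single libraries of the lines overlap in 11 rows (all but MT-CO2 and MT-ND1), and within a clone whole columns are dark or bright, as in WM115 clone 1.1, where libraries 4 and 5 are the bright ones.

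The 13 mRNAs moved largely as whole columns, but not in equal parts. MT-CO2 (chrM:7586-8269 in GENCODE 29), the copper-bearing subunit of cytochrome c oxidase, was the most abundant encoded mRNA in WM115, with a median of 16.0% of the encoded pool, against 9.76% in A375. MT-ATP6, the proton channel subunit of ATP synthase, led in A375 with a median of 13.6% and held 11.3% in WM115. MT-ND3 (chrM:10059-10404), a small core subunit of complex I, went the other way, with a median of 7.63% of the pool in A375 and 4.06% in WM115. It also varied least, with a within-group SD of 0.605 on the log2 scale in A375 and 0.375 in WM115, against 0.819 to 1.04 and 0.542 to 0.632 for the other 12 mRNAs. MT-ND6 alone lies on the other strand of the circle, and MT-ATP8 with MT-ATP6 and MT-ND4L with MT-ND4 overlap in position. Whether reads were counted by strand, and how reads shared with nuclear copies of mitochondrial sequence were treated, is not given in the sources used here.

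Between unedited cells of the lines, all 13 encoded mRNAs were higher in WM115 WT than in A375 WT. The test was limma on log2(TPM + 1) over 16126 genes, and a gene passed when its adjusted p was under 0.05. The fraction of all tested genes that passed was 47.9%, with 26.3% higher and 21.6% lower. The log2 differences ran from 1.79 for MT-ND3 to 3.58 for MT-CO2, with a median of 2.87. MT-CO2 was at 1547, 2079, 4855 and 875 TPM in A375 WT and at 23022, 25092, 19298 and 24875 TPM in WM115 WT. The groups did not overlap, and the difference had a limma adjusted p of 0.000134. MT-CYB, the cytochrome b of complex III, was at 465 to 2418 TPM in A375 WT and at 7107 to 8030 TPM in WM115 WT. Cell line and preparation cannot be told apart in it.

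Of 79 nuclear members tested, 17 were higher and 12 lower in WM115 WT, so the nuclear set did not follow the encoded set as a block. Its median difference was 0.12, beside 0.04 over all tested genes. The encoded mRNAs took 13.1% to 14.9% of the TPM in WM115 WT, which lowers the shares of all other genes. With all MT- genes taken out and the rest rescaled, 28 nuclear members were higher and 6 lower, beside 33.6% and 15.9% of all genes, and the median of all genes moved from 0.04 to 0.21. Of the 17 that were higher, 9 were among 19 catalytic or core subunits, a grouping made after the values were seen and described with the clones. They included NDUFS1 (log2 difference 0.97, SE 0.15, limma adjusted p 0.000557), NDUFV1 (0.85) and NDUFS7 (0.80), which carry the iron-sulfur clusters or flavin of complex I. SDHA, the flavoprotein of complex II, was higher by 0.69, and UQCRC2, a core protein of complex III, by 0.72. NDUFB5 (0.99) and NDUFB3 (0.94) are accessory subunits of complex I.

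None of the 12 lower members was among those core subunits. COX7B2, an isoform of a complex IV subunit best known from testis, was at 13.5, 7.91, 15.1 and 12.8 TPM in A375 WT and at 0.884, 2.12, 1.19 and 1.80 TPM in WM115 WT. The groups did not overlap, and the log2 difference was -2.41 (SE 0.23, limma adjusted p 3.07e-05). NDUFB6 (-1.20), NDUFC1 (-1.04) and NDUFB9 (-1.01), accessory subunits of the complex I membrane arm, were also lower. The genes of chromosome 4, which holds COX7B2 and NDUFC1, had a median difference of -0.50, and those of chromosome 8, which holds NDUFB9, of -0.35. The part of these chromosome-wide shifts was not tested.

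Tissue-restricted isoforms were otherwise silent. COX4I2 and COX6A2 were listed at 0 in all 39 libraries, and COX7A1 and COX8C did not exceed 0.792 and 0.403 TPM. Their common counterparts COX4I1 (388 to 795 TPM), COX6A1 (428 to 894), COX7A2 (132 to 378) and COX8A (328 to 740) were present in every library. COX6B2 reached 1.64 TPM at most, beside 356 to 735 TPM of COX6B1. UQCRHL, at 15.7 to 38.8 TPM, is a near-identical copy of UQCRH (393 to 821 TPM), so its level is uncertain.

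No OXPHOS gene passed the threshold in an A375 clone. In clones 1.1, 1.2, 4.1 and 4.2, 0 of 13 encoded and 0 of 79 nuclear members passed in limma, where 1.04%, 8.53%, 1.31% and 0.557% of all 16692 tested genes did. At an unadjusted p under 0.05 there were 0 encoded members in each clone and 3, 4, 3 and 0 nuclear ones. Of all 16692 tested genes, 1679, 3530, 1758 and 1297 had such a p. On simulated data the same fit recovered only 0% to 1.5% of genes changed by 0.5 in these clones. The absence of calls thus does not show the absence of small changes. Median encoded differences were -0.02, 0.45, -0.35 and 0.00. In clone 1.2 all 13 encoded differences were above 0, and 12 were under median-of-ratios scaling. The largest were those of MT-ND6 (0.94, limma adjusted p 0.421), MT-ND5 (0.82), MT-ND4 (0.80) and MT-ND4L (0.71), while MT-ND1, MT-ND2 and MT-ND3 were at 0.04 to 0.11. Per library, the summed level of these 4 genes over that of MT-ND1 to MT-ND3 was 1.93 to 3.78 in clone 1.2 and 0.922 to 2.13 in WT, so the groups overlapped.

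A375 clone 4.1 was the only clone whose replicate numbers paired with WT by the correlation of their deviations (0.326, 0.776, 0.342 and 0.705). With the replicate number as a block, 8 of 79 nuclear members passed and still 0 encoded ones, beside 11.7% of all genes in the same fit, so the nuclear count was near the share of all genes. ATP5F1D, NDUFA12, NDUFA9, NDUFB4, NDUFS5, UQCR10 and UQCRFS1 were lower by 0.26 to 0.38 on the log2 scale, and COX7B2 was higher by 0.42 (limma adjusted p 0.0283). Library 2 had the lowest nuclear sum in both groups, at 15394 TPM in WT and 14315 in clone 4.1. Ribosomal protein genes took 27.3% and 28.1% of the TPM in those libraries, against 18.9% to 25.05% in the other 6.

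In WM115, all 13 encoded mRNAs were below WT in each of the 5 clones, but few passed. In clone 1.1, MT-CYB (-1.14), MT-ND4 (-1.11) and MT-ND4L (-1.10) were lower, with limma adjusted p values of 0.0344, 0.0437 and 0.0498. In clone 4.1, MT-ND2 (-1.31), MT-ATP6 (-1.24) and MT-CO2 (-1.20) were lower, with adjusted p of 0.0338, 0.0448 and 0.0406. In clone 4.2, MT-ND3 (-0.89, adjusted p 0.0266) was lower. In clones 1.2 and 1.3, 0 of 13 passed, and 0 had an unadjusted p under 0.05, beside 6206 and 2212 of all tested genes. Those counts of 3, 0, 0, 3 and 1 in clones 1.1, 1.2, 1.3, 4.1 and 4.2 stand beside 15.7%, 10.8%, 0.406%, 15.6% and 13.6% of all 16997 tested genes passing as lower. Median encoded differences were -0.88, -0.56, -0.30, -1.06 and -0.76, and the medians over all tested genes lay between -0.12 and -0.02. Under quantile normalization 3 encoded mRNAs in clone 1.2 and 1 in clone 1.3 were above 0, and under median-of-ratios scaling 0 passed in any clone. Fitting only the compared groups let more pass in clones 1.2 and 4.1 and fewer in clone 1.1. The replicate number as a block let more pass in clone 1.1 and 0 in clones 4.1 and 4.2. The main fit shares the spread over groups. The SD of log2 of the encoded sum was 0.0864 in WT and 0.744, 0.238, 0.632, 0.535 and 0.783 in clones 1.1, 1.2, 1.3, 4.1 and 4.2.

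The encoded counts rested on few libraries. For clone 1.1, leaving out library 4 or 5, the high libraries, gave 6 or 10 encoded members passed, and leaving out library 1, 2 or 3 gave 0. For clone 4.1, 7 passed without its library 3 and 0 without library 1 or 2. Leaving out WT library 1, 2 or 4 gave 0 in both clones, and leaving out WT library 3 gave 1 in each. For clone 4.2, 0 passed without its library 1 or 3 or without WT library 1 or 4. The share of all genes that passed fell in several of these fits, as given below with the nuclear counts. It is not printed beside each count here, so nothing particular to the encoded set can be read from these counts.

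The pool's composition also differed among WM115 clones. MT-ND3 was at 5826, 4864, 4671 and 5939 TPM in WT and at 2021, 3948 and 2899 TPM in clone 4.2, so the groups did not overlap. MT-ND6 was at 3497, 3548, 3034 and 3333 TPM in WT and at 1497, 3826 and 3022 TPM in clone 4.2, where library 2 exceeded every WT library. The summed level of MT-ND4, MT-ND4L, MT-ND5 and MT-ND6 over that of MT-ND1 to MT-ND3 was 2.02 to 2.24 in clone 4.2 and 1.57 to 1.75 in WT. In clone 1.1 it was 1.12 to 1.56. This ratio was formed after the values were seen and carries no test.

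**Figure D3:**
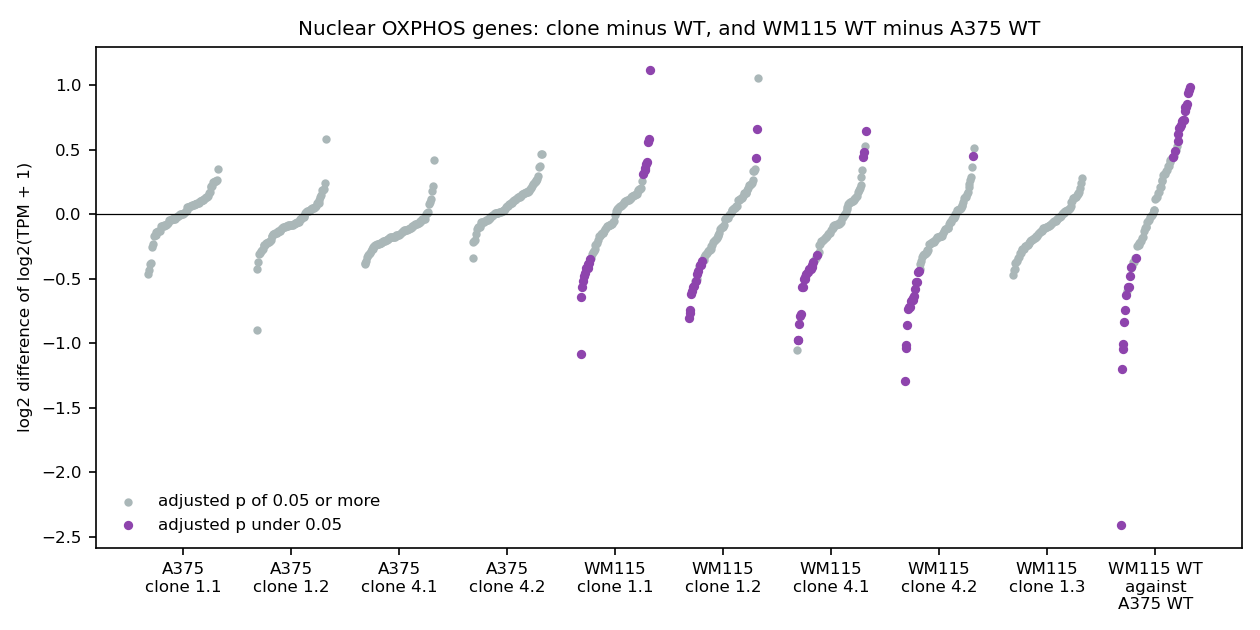
Each point is a nuclear OXPHOS gene, placed by its log2 difference on the log2(TPM + 1) scale and sorted within each comparison. Purple points have a limma adjusted p under 0.05: 0 in the A375 clones and in WM115 clone 1.3, and 20, 15, 22 and 18 in WM115 clones 1.1, 1.2, 4.1 and 4.2.

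Nuclear members changed in both directions in WM115 clones, more often downwards. In clone 1.1, 8 of 80 tested were higher and 12 lower in limma, beside 6.3% and 15.7% of all tested genes. In clone 1.2 the counts were 2 and 13, beside 11.8% and 10.8%. In clone 4.1 they were 3 and 19, beside 8.59% and 15.6%, and in clone 4.2 they were 1 and 17, beside 6.71% and 13.6%. Clone 1.3 had 0 in either direction, with 1.06% of all genes passed. At an unadjusted p under 0.05 it had 8, beside 2212 of all 16997 tested genes. Median nuclear differences in clones 1.1, 1.2, 1.3, 4.1 and 4.2 were 0.01, -0.09, -0.10, -0.12 and -0.17, beside -0.12, -0.02, -0.03, -0.10 and -0.10 over all genes. With the MT- genes taken out and the rest rescaled, the higher and lower counts became 4 and 14 in clone 1.1, 0 and 18 in clone 1.2, 1 and 23 in clone 4.1, and 0 and 21 in clone 4.2. The shares of all genes that were lower in that setting were 21.6%, 15%, 21.9% and 17.8%, and those higher 5.12%, 10.2%, 6.82% and 5.84%. That rescaling moved the median of all genes to -0.20 in both clone 1.1 and clone 4.1. Median-of-ratios scaling moved it to 0.00 and 0.01, and the counts to 13 higher and 4 lower in clone 1.1 and to 7 and 9 in clone 4.1, while clones 1.2 and 4.2 had 2 and 13 and 2 and 14. In that setting 11.2% of all genes were higher and 9.91% lower in clone 1.1, 12.6% and 10.6% in clone 1.2, 13.1% and 10% in clone 4.1, and 10.5% and 9.55% in clone 4.2. The direction of the nuclear set in clone 1.1 thus turned with the scaling. Asking also for a log2 difference of at least 1 left 4 nuclear members between the WT cells, beside 22.7% of all genes, and 2, 0, 0 and 3 in clones 1.1, 1.2, 4.1 and 4.2, beside 4.88%, 7.61%, 7.57% and 6.6%. Over either direction at the adjusted p alone, 22%, 22.6%, 24.2% and 20.3% of all genes passed in these clones.

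All WM115 clones were compared with the same 4 WT libraries, so their calls are not independent. In clones 1.1, 1.2, 4.1 and 4.2, 10.8% to 15.7% of all genes were lower, and the share lower in 3 clones was not counted. Of the nuclear members, 0 passed in the same direction in 4 or more WM115 clones and 11 passed as lower in 3. Picked out after their values were seen, they include NDUFS1, NDUFS7 and NDUFV1 of complex I, SDHA of complex II, UQCRC1 and UQCRC2 of complex III, COX7C of complex IV, and ATP5F1A, ATP5F1B and ATP5F1D of complex V. With the exception of COX7C they are conserved catalytic or core subunits. A grouping of 19 such nuclear subunits (the NDUFS and NDUFV core of complex I, complex II, UQCRC1, UQCRC2 and UQCRFS1, and the F1 head of ATP synthase), also made after seeing the values, held 5 of the 12 lower calls of clone 1.1, 9 of 13 in clone 1.2, 11 of 19 in clone 4.1 and 11 of 17 in clone 4.2. It held 0 of the higher calls of these clones, except that under median-of-ratios scaling 1 core subunit was higher in clone 1.1 and only 1 was lower. Its median differences were -0.27, -0.39, -0.43 and -0.53, and those of the other 61 members were 0.06, -0.01, -0.08 and -0.11. Under median-of-ratios scaling the core medians were -0.13, -0.37, -0.29 and -0.40 and those of the others 0.20, 0.01, 0.06 and 0.01.

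Because several subunits were lower together, the 250 bases before the RefSeq start (build GRCh38.p14) were searched for motifs on both strands. Promoters were found for 68 of the 85 nuclear members. The ETS core bound by GABP (NRF2), CCGGAAG, was in 25% of them and in 8.82% of all 27305 promoters of the same length. The palindromic NRF1 site was in 4.41% against 1.13%, the estrogen-related receptor (ERR) element TCAAGGTCA in 0 of 68 against 0.319%, and the CCAAT box in 33.8% against 33%. Of the 11 members lower in 3 clones only 8 had a promoter entry, and 1 of these (NDUFS1) held an ETS core. These are too few to read a share from. In the sequences below, shown 5′ to 3′ on the gene's strand, capitals mark an ETS core (as CTTCCGG, its reverse complement). All 3 genes passed as lower in at least 2 WM115 clones. They show an ETS core 157 bases before the RefSeq start (NDUFS1), an ETS core 18 bases before that start (COX8A), and a stretch without the core (SDHA). By the gene positions given below, the NDUFS1 and SDHA stretches run past the start of the gene, and the NDUFS1 core lies inside the gene. The stretch searched for UQCRC2 lies wholly inside its gene. The searched stretches are thus not all upstream sequence, and how many reach into a gene was not counted.
NDUFS1 (chr2:206159445-206159694, minus strand): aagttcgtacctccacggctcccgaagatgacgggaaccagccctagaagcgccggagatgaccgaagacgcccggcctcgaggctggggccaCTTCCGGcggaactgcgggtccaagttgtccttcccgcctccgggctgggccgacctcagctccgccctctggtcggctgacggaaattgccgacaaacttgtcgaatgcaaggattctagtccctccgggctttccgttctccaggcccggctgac
COX8A (chr11:63974370-63974619, plus strand): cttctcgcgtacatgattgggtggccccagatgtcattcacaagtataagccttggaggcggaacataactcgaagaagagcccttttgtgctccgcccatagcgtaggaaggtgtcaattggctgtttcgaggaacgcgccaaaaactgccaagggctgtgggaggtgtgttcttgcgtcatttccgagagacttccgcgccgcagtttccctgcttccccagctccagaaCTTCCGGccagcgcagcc
SDHA (chr5:218070-218319, plus strand): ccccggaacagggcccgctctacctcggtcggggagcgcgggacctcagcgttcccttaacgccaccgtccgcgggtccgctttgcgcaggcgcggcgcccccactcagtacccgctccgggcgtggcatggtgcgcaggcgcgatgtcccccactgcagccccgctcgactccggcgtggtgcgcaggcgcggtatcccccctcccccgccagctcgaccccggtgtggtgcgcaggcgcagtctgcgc

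Among complex I subunits, NDUFS1 (chr2:206114817-206159603 in GENCODE 29), the largest iron-sulfur subunit, was at 89.6, 84.0, 75.3 and 91.5 TPM in WM115 WT. It was at 66.2, 61.8 and 56.0 TPM in clone 1.2, at 67.1, 58.2 and 59.0 in clone 4.1, and at 58.7, 49.6 and 69.5 in clone 4.2. Every library of these clones was below every WT library, with log2 differences of -0.46, -0.46 and -0.52 (limma adjusted p 0.0301, 0.0284 and 0.0175). In clone 1.1 it was at 68.4 to 72.5 TPM, also below WT, with a difference of -0.27 that did not pass (adjusted p 0.146). NDUFS7, which holds the last cluster before ubiquinone, was at 200, 183, 139 and 214 TPM in WT and at 103, 83.3 and 115 TPM in clone 4.2. Its differences were -0.62, -0.79 and -0.86 in clones 1.2, 4.1 and 4.2, past the adjusted p of 0.05 in each. NDUFV1, the NADH-binding flavoprotein, was lower in clones 1.1, 1.2 and 4.2, with differences of -0.48, -0.80 and -0.73, while clone 4.1 did not pass (-0.23, adjusted p 0.323). The median gene of its chromosome 11 differed by -0.27, -0.10, 0.29 and 0.02 in clones 1.1, 1.2, 4.1 and 4.2.

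For complex II, SDHA (chr5:218241-256700) was at 144, 143, 112 and 155 TPM in WM115 WT. It was at 72.6, 72.0 and 64.1 TPM in clone 4.1 and at 71.5, 55.0 and 78.6 TPM in clone 4.2. The groups did not overlap, and the differences were -0.97 (SE 0.21, limma adjusted p 0.00341) and -1.01 (SE 0.21, adjusted p 0.00344). Clone 1.1, at 82.9 to 100 TPM, was lower by 0.57 (adjusted p 0.0368), a call lost when library 2, 3, 4 or 5 of that clone or WT library 1, 2 or 4 was left out. SDHB, the iron-sulfur subunit, passed in clone 1.2, where it was lower by 0.56.

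For complex III, UQCRC2 (chr16:21952660-21983660) was at 239, 236, 203 and 273 TPM in WT and at 116, 112 and 132 TPM in clone 4.1, a difference of -0.98 (SE 0.15, limma adjusted p 0.000279). The median gene of chromosome 16 differed by -0.46 in this clone, from which UQCRC2 differed by -0.52. UQCRC1 differed by -0.85 there, with a chromosome 3 median of -0.35. It differed by -0.64 in clone 1.1 and -0.53 in clone 4.2, where that median was -0.32 and -0.07. UQCRFS1, the Rieske iron-sulfur protein, was lower by 0.57 in clone 4.1 and by 0.65 in clone 4.2. UQCR11, a small accessory subunit, was higher in clone 1.1 (0.41) and clone 4.1 (0.45).

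For complex V, ATP5F1B (chr12:56638175-56646068), the catalytic beta subunit and the most abundant nuclear member of WM115 by mean TPM, was at 979, 941, 785 and 1037 TPM in WT. It was at 562, 609 and 478 TPM in clone 1.2, at 572, 559 and 500 in clone 4.1, and at 494, 366 and 518 in clone 4.2. All 9 libraries lay below WT, with differences of -0.77, -0.78 and -1.03 (limma adjusted p 0.0149, 0.0117 and 0.00243). ATP5F1A, the alpha subunit, differed by -0.39, -0.48 and -0.67 and ATP5F1D, the delta subunit, by -0.52, -0.43 and -0.58 in the same clones. ATP5MG, a membrane-sector subunit, was lower in clone 1.1, by 0.51.

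For complex IV, 4, 2, 3 and 4 members were lower in clones 1.1, 1.2, 4.1 and 4.2, and COX7C was the one lower in 3 of them. COX4I1, which regulates the enzyme's activity by ATP, was at 717, 619, 593 and 791 TPM in WT and at 408, 388 and 434 TPM in clone 4.2, a difference of -0.72 (limma adjusted p 0.000591). It was lower by 0.50 in clone 4.1, where the chromosome 16 median was -0.46, and stood at 653 to 748 TPM in clone 1.1. COX7B2 was listed at 0 in all 3 libraries of clone 4.2 and at 0.096 to 0.227 TPM in clone 1.1, against 0.884 to 2.12 TPM in WT. Its highest WM115 library, at 10.3 TPM, belonged to another clone and stood above every WT library. In clone 1.1 the difference was -1.08 (limma adjusted p 0.0337), a call lost when any library of that clone or WT library 2 or 4 was left out. In clone 4.2 the adjusted p was 0.0286, and that call was lost without any library of the clone or without WT library 2 or 4.

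**Figure D4:**
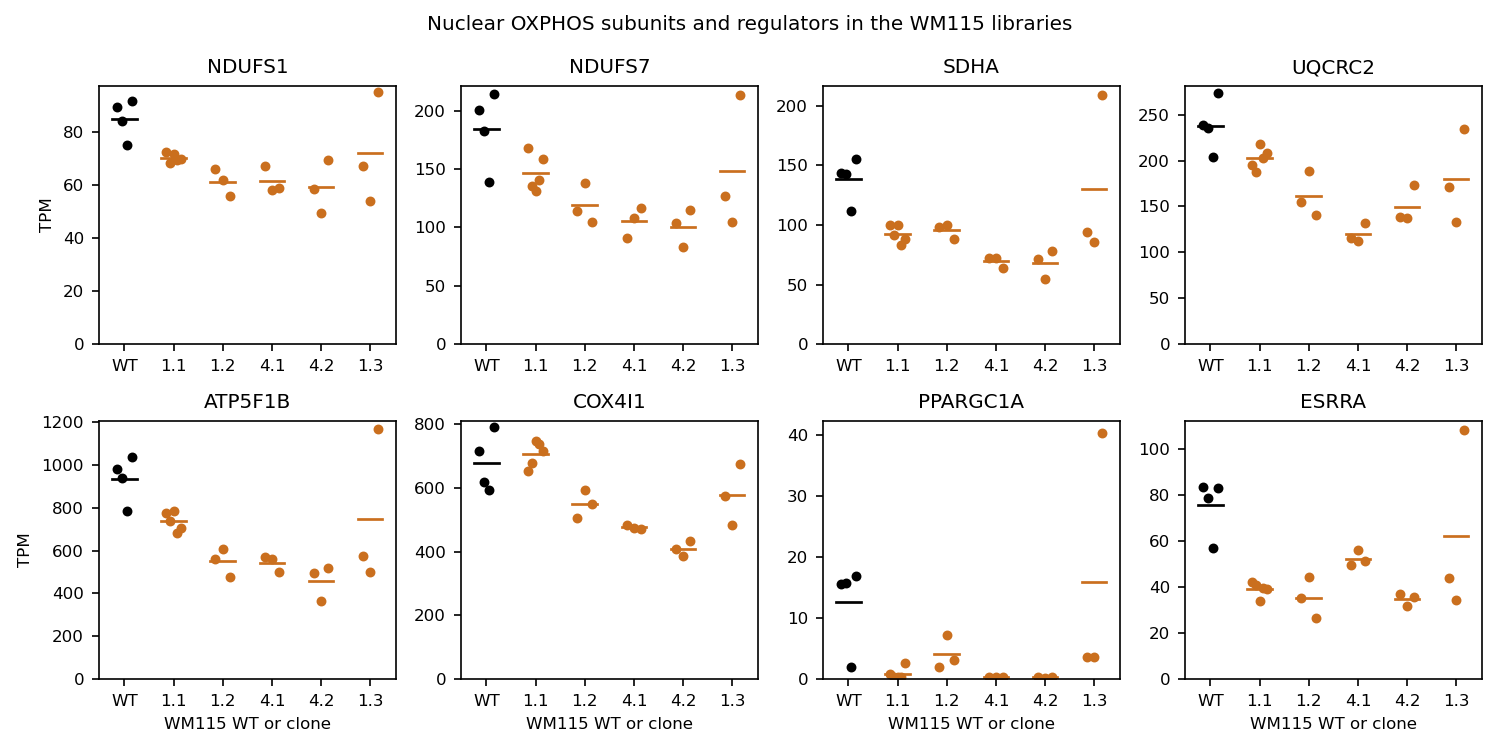
TPM of 6 nuclear subunits and of the regulators PPARGC1A and ESRRA in the WM115 libraries; points are libraries, bars are group means, WT in black and clones in orange. SDHA and ATP5F1B sit below WT in every library of clones 4.1 and 4.2, and library 3 of clone 1.3 (209 TPM of SDHA, 40.3 of PPARGC1A) stands above the other libraries of its clone in all panels.

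Clone 1.3 depended on its library 3. With it, 0 nuclear members passed. Without it, 13 of 80 passed as lower, beside 2.02% of all genes in that fit, and 10 of them were among the 11 lower in 3 other clones. COX6B1, SDHB and UQCRFS1 were the members outside those 11. The same WT libraries served all these comparisons, so this overlap is not an independent repeat. ATP5F1B was at 575, 500 and 1166 TPM and SDHA at 94.3, 86.1 and 209 TPM in the 3 libraries. Without library 3 they differed from WT by -0.80 (limma adjusted p 0.00548) and -0.60 (adjusted p 0.0239). That library also had the ribosomal protein share nearest to WT among the clone libraries, as given above.

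Clone 1.2 depended on its own library 3, the one low in SOX10. Without it only NDUFV1 passed (-0.67, limma adjusted p 0.0376), against 15 nuclear members with it, and 5.25% of all genes passed in that fit. Without WT library 1 there were 8, beside 16.2%. In clone 1.1 the nuclear count of 20 fell to 12 without WT library 1 and to 10 without WT library 2. In clone 4.1 the count of 22 became 14, 13 and 12 without its libraries 1, 2 and 3, and 13 without WT library 1. The shares of all genes that passed fell too, to 14.5% and 15% for clone 1.1 and to 13.9%, 14.3%, 19.8% and 18.1% for clone 4.1. With the summed encoded level as a covariate, chosen after seeing the data, 13 nuclear members passed in clone 1.1 and 9 in clone 4.1, beside 13.1% and 13.2% of all genes.

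The subunits that rose in WM115 clones were accessory ones. NDUFB9, of the complex I membrane arm on chromosome 8, was at 208, 160, 188 and 309 TPM in WT and at 438, 405, 433, 492.99 and 530 TPM in clone 1.1. The groups did not overlap, and the difference was 1.12 (SE 0.14, limma adjusted p 2.15e-05). The median gene of chromosome 8 differed by 0.41 in that clone, and COX6C on the same chromosome by 0.56. NDUFA11 (0.59) rose in clone 1.1, NDUFC2 (0.64) in clone 4.1, NDUFB6 in clones 1.1 and 4.2 (0.39 and 0.45), and COX7A2L, which joins complexes into supercomplexes, in clone 1.2 (0.43). NDUFC2 lies on chromosome 11, whose median was 0.29 in clone 4.1.

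**Figure D5:**
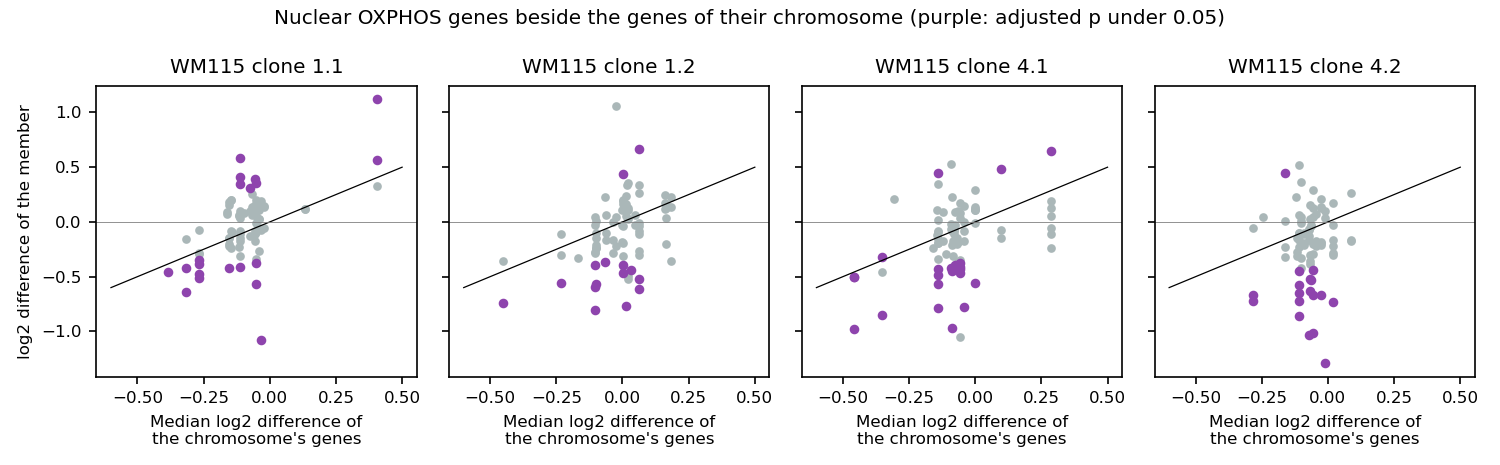
Log2 difference of each nuclear OXPHOS gene (vertical) against the median difference of all tested genes on its chromosome (horizontal) in 4 WM115 clones; purple points have a limma adjusted p under 0.05 and the line marks equality. NDUFB9 and COX6C of clone 1.1 lie above a chromosome 8 median of 0.41, while most lower members of clone 4.2 sit on chromosomes whose median is near 0.

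Chromosome-wide shifts thus accompanied part of the changes. Of the members that passed, 10 of 20 in clone 1.1, 2 of 15 in clone 1.2, 6 of 22 in clone 4.1 and 3 of 18 in clone 4.2 lay on chromosomes whose median was shifted by at least 0.15 in size. Measured from their chromosome's median, the passed members had a median difference of -0.09, -0.46, -0.35 and -0.55 in these clones. Transcript length moved with the result too. Nuclear members with transcripts above 678 bases had a median difference of -0.22 in clone 4.2 and shorter ones of -0.11, and the same split over all genes gave -0.10 and 0.04. In clone 1.2 the split gave -0.24 and 0.03, and over all genes -0.04 and 0.11. A correction for GC content and length gave nuclear medians of -0.17 in clones 1.2 and 4.2, against -0.09 and -0.17 without it. The part of chromosome-wide shifts in the result was not tested, and that of length was not tested further.

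Regulators of the mitochondrial program were taken from a list of 10 genes. PPARGC1A was at 15.5, 15.8, 2.05 and 16.9 TPM in WM115 WT, where library 3 was the low one, and at most 0.593 TPM in A375. It was at 0.274 to 2.57 TPM in clone 1.1, 0.289 to 0.406 in clone 4.1 and 0.190 to 0.362 in clone 4.2. The log2 differences were -2.69 (limma adjusted p 0.00347), -3.03 (0.00348) and -3.12 (0.00376), while clone 1.2, at 1.91 to 7.16 TPM, did not pass (-1.26, adjusted p 0.181). ESRRA, the orphan receptor that PPARGC1A coactivates, was lower in clones 1.1 (-0.92), 1.2 (-1.09) and 4.2 (-1.09), and PPARGC1B in clones 1.2, 4.1 and 4.2. MYC was higher in clone 1.1 (1.22) and lower in clones 4.1 (-1.83) and 4.2 (-1.74). It lies on chromosome 8, whose median gene differed by 0.41, 0.10 and 0.09 in these clones. Of the regulators tested, 8 in A375 and 9 in WM115, the counts of higher and lower were 1 and 2 in clone 1.1, 0 and 2 in clone 1.2, 0 and 3 in clone 4.1, and 0 and 4 in clone 4.2. They stand beside 6.3% to 11.8% of all genes higher and 10.8% to 15.7% lower in these clones. In A375 only MYC in clone 1.2 passed (-0.86, adjusted p 0.00546), beside 8.53% of all genes there.

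Of 31 genes that copy, transcribe or process mitochondrial DNA and RNA, 4 were higher and 5 lower in WM115 clone 1.1, 2 and 4 in clone 1.2, 0 and 5 in clone 4.1, 1 and 5 in clone 4.2, and 0 in clone 1.3. Of all tested genes, 6.3%, 11.8%, 8.59% and 6.71% were higher and 15.7%, 10.8%, 15.6% and 13.6% lower in clones 1.1, 1.2, 4.1 and 4.2. In clone 1.3, 1.06% of all genes passed. TFAM, which packages mitochondrial DNA, passed in no clone and stayed between 19.8 and 30.1 TPM in all WM115 libraries. POLRMT, the mitochondrial RNA polymerase, was lower in clones 4.1 (-0.48) and 4.2 (-0.43). LRPPRC, which stabilises encoded mRNAs and promotes their polyadenylation, was higher in clone 1.1 (0.40, limma adjusted p 0.00649), where the encoded mRNAs were below WT. ELAC2, which cuts tRNAs out of mitochondrial precursors, and FASTKD1 were lower in clones 1.1, 1.2, 4.1 and 4.2. Between the WT cells, FASTKD1 was higher in WM115 by 2.28 and TFB1M lower by 1.64.

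The mitochondrial ribosome and the assembly factors, whose products translate the encoded mRNAs and build the complexes, changed in both directions. Of 78 mitochondrial ribosomal protein genes, 19 were higher and 2 lower in WM115 clone 1.1, 6 and 9 in clone 1.2, 3 and 10 in clone 4.1, and 7 and 13 in clone 4.2. Their median differences were 0.13, -0.04, 0.03 and 0.05, to be read beside the shares and medians of all genes given for the nuclear members. MRPS25 was lower in these 4 clones, by 0.61 to 1.19. Of 45 assembly factors, 6 were higher and 6 lower in clone 1.1, 1 and 3 in clone 1.2, 4 and 11 in clone 4.1, and 4 and 5 in clone 4.2, with medians of 0.01, 0.02, -0.12 and -0.12. The same shares of all genes apply to the assembly factors and to the genes outside the symbol rule. In the A375 clones, 1 mitochondrial ribosomal gene was lower in clone 1.1 and 2 in clone 1.2, and 1 assembly factor was lower in clone 4.1. Of all genes, 1.04%, 8.53% and 1.31% passed in these A375 clones. TMEM70, which helps assemble ATP synthase, was higher in WM115 clones 1.1, 4.1 and 4.2. Between the WT cells, 30 mitochondrial ribosomal genes were lower and 4 higher in WM115, led by MRPL23 (-3.18), while the encoded mRNAs were higher. In that comparison 21.6% of all genes were lower and 26.3% higher. Of 7 OXPHOS genes outside the symbol rule, 6 were tested in the WM115 clones, and 1 was higher in each of clones 1.1, 1.2, 4.1 and 4.2 and 1 lower in clones 4.1 and 4.2. CYC1, the cytochrome c1 of complex III, was higher in clone 1.1 (0.49), and ATP5IF1, an inhibitor of ATP synthase, in clones 1.2, 4.1 and 4.2 (0.47, 0.43 and 0.61). TMEM70 and CYC1 lie on chromosome 8, whose median gene differed by 0.41, 0.10 and 0.09 in clones 1.1, 4.1 and 4.2. The part of that shift was not tested.

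With the clone as the unit, R4 clones were compared with R1 clones over 8 clone means, the line as a covariate and clone 1.3 left out. In limma 0 of 14894 genes passed (0%), members included, and 641 genes but 0 members had an unadjusted p under 0.05. All 13 encoded differences were below 0, from -0.31 to -0.18, and 25 of 79 nuclear ones were above 0. The interaction of region and line gave 0 of 14894 genes at an adjusted p under 0.05, and 0 of 92 members at an unadjusted p under 0.05. Whether the lines differ in their response to a deletion is thus not shown for these genes.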

How the data were processed

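Gene-level values were deposited by the authors as TPM in a whole-series table; the submitters' processing notes name DRAGEN and GRCh38, and the annotation release is not given in the sources used here. Per the labels' protocols, poly-A RNA was fragmented and reverse-transcribed with random hexamers. TPM have the same total in each library, so a rise of the encoded mRNAs lowers other genes' shares. The table's 6 columns that match no sample were not used. Depth is unknown.

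The test was limma 3.58.1 (R 4.3.3) on log2(TPM + 1), per line with all its groups sharing the spread, for genes reaching 1 TPM in 3 or more libraries, with Benjamini-Hochberg adjustment over all of them, two-sided; differences on this scale understate changes of low genes. The fit was tested on simulated data with 200 changed genes per clone. At a log2 change of 0.5 it recovered 0% to 1.5% of them in the A375 clones and 3% to 23% in the WM115 clones. At a change of 1 it recovered 53.5% to 68% and 70% to 81.5%. Small changes can thus be missed. Members and lists were chosen with earlier results of these data known. Genes named were the encoded mRNAs, per comparison the 3 nuclear members that rose and the 3 that fell furthest, isoform pairs, members passed in at least 4 of 5 WM115 or 3 of 4 A375 clones, and leading genes of each list; others were chosen after their values were seen. Some results are not reported here. Alternatives covered pseudocount, filters, scaling, variance trend, groups fitted, replicate block, each library left out, and, added later, GC content and length, and the encoded sum as covariate. Replicate numbers paired the libraries in A375 clone 4.1 alone, by the correlation of deviations from the group means, which is a hint from the data. Positions are from GENCODE 29.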

Additional observations from a re-analysis of the deposited data

Results flagged for a closer look

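Each quantity was checked in each group of 4 or 5 libraries, which made 180 checks. In 26 of them a library lay far from the others of its group. Chance flags about 1 in 20 independent checks, but these were not independent. The encoded sum and its own mRNAs were among the quantities, so 26 is not read against that rate. Library 3 of A375 WT and library 3 of A375 clone 4.1 stood above their groups in encoded mRNA. In A375 WT library 3 the encoded sum was 47795 TPM (others 11420 to 15967), with 6899 of MT-ATP6, 5641 of MT-CO3, 2418 of MT-CYB, 1474 of MT-ND1 (others 362 to 373) and 4814 of MT-ND4L. In clone 4.1 library 3 the sum was 42881 TPM (others 7757 to 12869), with 5482 of MT-CO1, 5418 of MT-CO2, 4491 of MT-ND4, 1709 of MT-ND5 and 1435 of MT-ND6.

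Library 2 of both groups was low in small nuclear subunits. In A375 WT library 2, NDUFB3 was at 31.2 TPM (others 79.4 to 89.0), NDUFB6 at 60.4 and NDUFC2 at 96.5 (others 241 to 244). In clone 4.1 library 2, UQCR11 was at 46.5 TPM, and COX6B2 at 0.219, PPARGC1A at 0.401 and ESRRA at 55.8 TPM were high for the group. In A375 clone 1.2, ATP5F1B was at 816 TPM in library 2 and COX7B2 at 14.6 in library 4.

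In WM115 clone 1.1, library 3 held 205 TPM of NDUFV1 (others 227 to 234) and 235 of UQCRC1 (others 198 to 208), and library 5 held 2.57 of PPARGC1A. In WM115 WT library 3, PPARGC1A was at 2.05 TPM (others 15.5 to 16.9) and ESRRA at 57.0 (others 78.8 to 83.3). Groups of 3, such as clones 1.2 and 1.3, were too small for this check.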

How the results depend on the processing

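No named gene's call reversed, but the split of nuclear members in WM115 clone 1.1 turned under median-of-ratios scaling, from 8 higher and 12 lower to 13 and 4. Single-gene values cover only the encoded mRNAs, isoform pairs, genes named in advance, and the members and list genes that differed furthest. Of 143 such differences that passed, 2239 of 2633 alternative values stayed past the threshold and 394 did not. Of 247 that did not pass, 77 of 4296 did. Genes picked as furthest do not stand for all that passed. The cause of each shift below was not tested. Most counts below are printed without the share of all genes passing in the same fit. Nothing particular to the members can be read from them.

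With the replicate number as a block, the counts of members passed were 8 nuclear in A375 clone 4.1, 11 encoded in WM115 clone 1.1, 0 nuclear in clone 1.2, 0 encoded and 4 nuclear in clone 4.1, and 0 encoded and 0 nuclear in clone 4.2; outside A375 clone 4.1 the samples share only a number. Without a filter, 0 encoded passed in WM115 clones 1.1, 4.1 and 4.2, and 2 nuclear in A375 clone 1.2; median-of-ratios scaling also gave 0 encoded in those 3 WM115 clones. Fitting only the groups compared gave 1, 5 and 12 encoded in WM115 clones 1.1, 1.2 and 4.1, and 6 nuclear in clone 1.2. Quantile normalization gave 1 nuclear in A375 clone 1.1 and 1 encoded in WM115 clone 1.2. A filter at a mean TPM of 5 gave 6 encoded in WM115 clone 4.1. GC content and length correction gave 1 nuclear in A375 clones 1.1 and 1.2, and 5 encoded in WM115 clone 4.1. The encoded sum as a covariate gave 13 nuclear in WM115 clone 1.1 and 9 in clone 4.1. Asking also for a log2 difference of at least 1 left 4 nuclear between the lines, 2, 0, 0 and 3 nuclear in WM115 clones 1.1, 1.2, 4.1 and 4.2, and 0 encoded in clone 4.2.

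Leaving out each library in turn gave 0 to 10 encoded in WM115 clone 1.1, 0 to 7 in clone 4.1 and 0 to 1 in clone 4.2, and 13 throughout between the lines. Nuclear counts ranged from 21 to 41 between the lines, 0 to 1 in A375 clone 1.2 (1 without WT library 2), 10 to 19, 1 to 16, 0 to 13, 12 to 22 and 12 to 24 in WM115 clones 1.1, 1.2, 1.3, 4.1 and 4.2. Depth is unknown, so no detection limit is given.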
